A study of Saccharomyces cerevisiae with 40 samples.

Results

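Phenylalanine and tryptophan are aromatic amino acids that share a backbone and differ in the side chain, a phenyl ring in phenylalanine and an indole ring in tryptophan. Messenger RNA of budding yeast, Saccharomyces cerevisiae, was compared between cultures given an excess of phenylalanine (Phe, 4 libraries) and cultures given an excess of tryptophan (Trp, 4 libraries). These 8 of the 40 libraries of the series were chosen by their labelled treatment, and all 6103 genes with a mean of at least 5 normalized reads were compared. The other libraries are an untreated control (Ctrl) and 7 more single amino acids, with 4 libraries in each of the 10 groups. Every group was labelled only as yeast cultures, with a treatment and a letter from A to D that the labels call a batch. No dose, time of exposure, medium, strain or genotype was given in the labels used here, so the doses of Phe and Trp may differ, and a difference between the groups cannot be told apart from a difference in dose. Phe and Trp are the 1 pair of treatments compared directly here, and their levels against Ctrl are given beside it for part of the genes and lists. Elsewhere, higher or lower in Phe is relative to Trp only.

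Yeast makes both amino acids from chorismate through the shikimate pathway, whose first step is carried out by DAHP synthase isoenzymes that are inhibited by phenylalanine or by tyrosine. It degrades them through the Ehrlich pathway, in which an aminotransferase, a decarboxylase and a dehydrogenase turn an aromatic amino acid into a fusel alcohol, and the transcription factor Aro80 activates the genes of the first steps when aromatic amino acids are present. Tryptophan is also the precursor of NAD through the kynurenine pathway, a route that phenylalanine does not enter.

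Libraries of both groups held an estimated 6310840 to 16373650 reads. One library stood apart. Phe replicate C, the deepest of the 8, correlated with the other Phe libraries at a mean r of 0.969 across genes, against 0.977 to 0.980 for Phe A, B and D and 0.984 to 0.988 for the Trp libraries. The means of Phe A, B and D include their correlation with Phe C. Among themselves, their pairs stood at 0.987, 0.984 and 0.979, against 0.9813 to 0.9905 for Trp pairs. Trp C and Ctrl C were also the deepest libraries of their groups. In Phe C 339 genes lay 2-fold or more from the mean of the other 3 Phe libraries. For Phe A, B and D, where that mean includes Phe C, it was 132 to 185. Gly C came closest in the series, with a mean r of 0.971 and 321 genes. Genes of the general stress response were higher in Phe C by a median of 1.70 on the log2 scale, heat shock proteins by 0.69, and genes of ribosome biogenesis were at -0.70. HSP12, a small membrane-associated stress protein, held 1014, 448, 7353 and 1106 normalized reads in Phe A to D and 2996, 372, 1352 and 747 in Trp A to D. Counts over all genes, and those of many lists and genes, are therefore given with and without Phe C. STE2, the receptor found on cells of mating type a, held 7888, 8392, 6989.6 and 9209 normalized reads in Phe and 4968, 6531, 6313 and 6090.1 in Trp, while STE3, its counterpart on alpha cells, held 43.6 to 86.0 over the same 8 libraries, with mostly fractional read values.

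With all libraries, 726 of 6103 genes (11.9%) passed an adjusted p of 0.05 between Phe and Trp in limma's test, fitted to log2(normalized reads + 1) over all 40 libraries. Of these, 358 (5.87%) were higher in Phe and 368 (6.03%) lower. Differences are given throughout as log2 values of Phe minus Trp with their standard error (SE, n = 4 libraries per group), so that a negative value is lower in Phe, and p-values are from limma with Benjamini-Hochberg adjustment over all genes tested. The SE is limma's, from a spread estimated over all 10 groups, and is not that of the Phe and Trp libraries alone. In these bulk cultures, less RNA per cell and fewer cells expressing a gene cannot be told apart. A difference of 2-fold or more was reached by 89 genes (1.46%), 64 of them higher in Phe and 25 lower. The sign was the same in all 4 letters for 599 of the 726. The ranges of the Phe and Trp libraries did not overlap for 518 of the 726, and for 870 of all genes tested (14.3%). Without Phe C, 1389 genes (22.8%) passed, 670 higher in Phe (11%) and 719 lower (11.8%). Of the 1389, 152 differed 2-fold or more (2.49% of all genes). Both fits called 689 genes, while 37 were called only with Phe C and 700 only without it. Leaving out Phe A gave 478 calls, Phe B 352, Phe D 414, Trp A 469 and Trp D 405. With the batch letter as a block in the model, 1023 genes passed (16.8%), 487 higher in Phe (7.98%) and 536 lower (8.78%), and with the 8 Phe and Trp libraries alone in the model 269 did. Rescaling to equal library totals gave 440 genes higher in Phe and 226 lower. Against Ctrl, 342 genes (5.6%) passed in Phe, 226 higher (3.7%) and 116 lower (1.9%), and 752 (12.3%) in Trp, 386 higher (6.32%) and 366 lower (6%), and both comparisons use the same 4 Ctrl libraries.

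**Figure D1:**
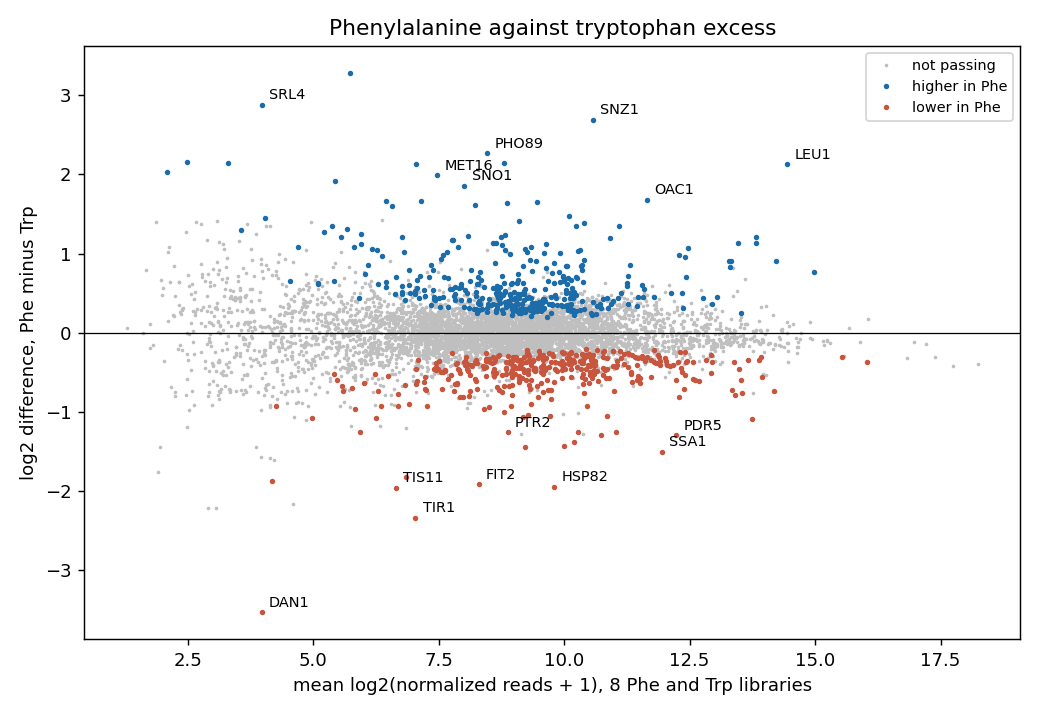
Each point is 1 of 6103 genes, with the mean log2(normalized reads + 1) of the 8 Phe and Trp libraries on the x axis and the log2 difference Phe minus Trp on the y axis. Coloured points passed an adjusted p of 0.05, 358 above 0 and 368 below it, and the labelled genes are among those described in the text.

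In both groups the Aro80 targets ARO9 and ARO10 were far above Ctrl, and the Phe libraries lay below all Trp libraries, except Phe C for ARO10. ARO9, the aromatic aminotransferase of the Ehrlich pathway, held 10174, 8265, 15520.3 and 10193 normalized reads in Phe A to D, 18854, 18233, 16241 and 19634 in Trp and 44.5, 44.6, 31.5 and 62.5 in Ctrl. ARO10, the decarboxylase of the next step, held 13971, 10268, 18435 and 11965 in Phe, 20069.8, 19266, 16464 and 21002 in Trp and 132, 111, 147 and 119.6 in Ctrl. For both genes every Phe and Trp library lay far above every Ctrl library, and Phe C was the highest Phe library. Against Ctrl, ARO9 rose by 7.88 ± 0.31 in Phe (log2, SE, limma adjusted p = 8.34e-21) and 8.64 ± 0.31 in Trp (adjusted p = 3.82e-22), and ARO10 by 6.71 ± 0.21 (adjusted p = 1.04e-23) and 7.23 ± 0.21 (adjusted p = 8.24e-25). Among the 7 other amino acid groups the highest mean was in Gly (379) for ARO9 and in Met (243) for ARO10.

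The direct comparison of the pair depended on Phe C. Between Phe and Trp, ARO9 differed by -0.76 ± 0.31 (SE, adjusted p = 0.0983) and ARO10 by -0.52 ± 0.21 (SE, adjusted p = 0.0983), neither past the threshold, with 95% intervals of -1.38 to -0.14 and -0.95 to -0.09. Without Phe C the differences were -0.94 (adjusted p = 0.0353) and -0.68 (adjusted p = 0.0249), and for both genes the remaining Phe libraries lay below every Trp library. ARO80, the activator itself, held 258, 326, 684 and 353 normalized reads in Phe and 632, 653, 611 and 714 in Trp, against 282, 256, 227 and 292 in Ctrl. Phe A, B and D lay below all Trp libraries, while Phe C lay among them. The difference was -0.79 ± 0.19 (SE, adjusted p = 0.00503), and -1.07 (adjusted p = 1.24e-05) without Phe C. ESBP6, a protein related to monocarboxylate transporters, held 2049.9, 2029, 2701 and 2176 in Phe and 2534, 2837, 2809 and 2782 in Trp, with 653, 545, 534 and 578 in Ctrl. It rose against Ctrl in both groups (1.95, adjusted p = 1.52e-16, in Phe, 2.25, adjusted p = 1.48e-18, in Trp), and the 3 Phe libraries other than C were below all 4 Trp libraries. The Phe minus Trp difference was -0.30 (adjusted p = 0.0534), and -0.39 (adjusted p = 0.00797) without Phe C.

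**Figure D2:**
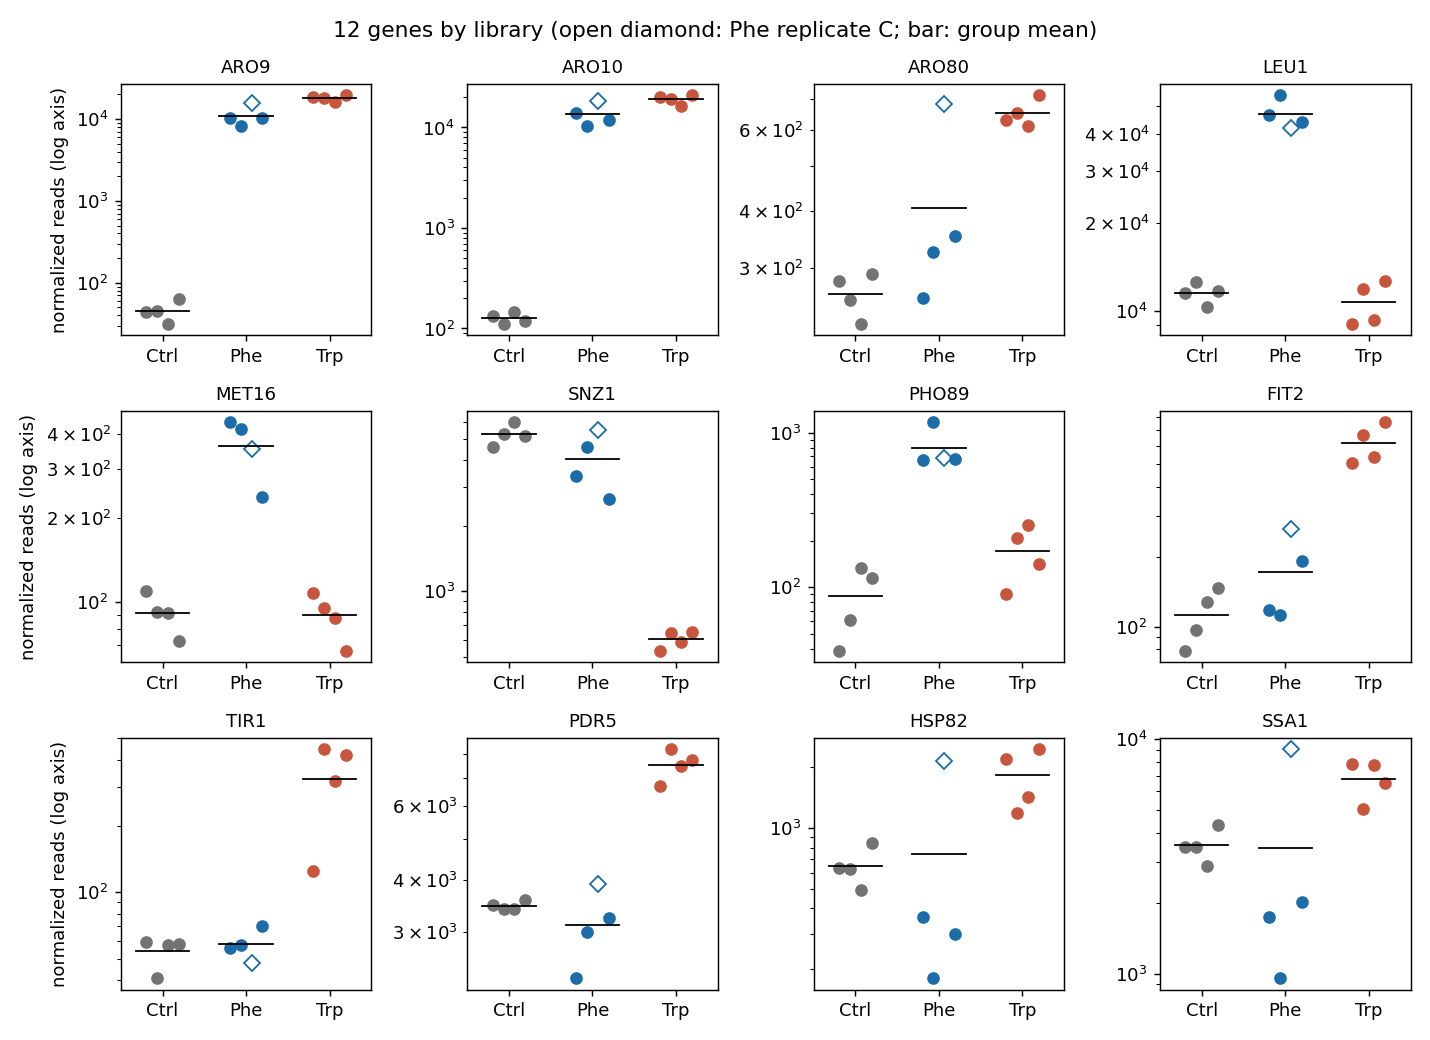
Normalized reads (log axis) of 12 genes in each Ctrl, Phe and Trp library, with a horizontal bar at each group's mean and Phe replicate C drawn as an open diamond. ARO9 and ARO10 are high in both Phe and Trp, LEU1 and MET16 are higher in Phe than in both other groups, SNZ1 is low in Trp, and Phe replicate C lies apart from the other Phe libraries for HSP82 and SSA1.

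Of the 12 Ehrlich pathway genes listed, 3 were higher in Phe, 1 (ARO80) lower, and 8 did not pass, with a median difference of 0.01 against -0.002 over all genes. Without Phe C, 5 were lower in Phe and 3 higher. Higher in Phe were ADH5, an alcohol dehydrogenase, PDR12, the exporter of weak organic acids including the acids formed in the Ehrlich pathway, and WAR1, the activator of PDR12. ADH5 held 1476, 1640.3, 1434 and 1221 normalized reads in Phe and 679, 897, 857 and 786 in Trp. The Phe libraries were all above the Trp libraries, and Ctrl lay between (1061, 991, 936 and 1072). The difference was 0.84 ± 0.19 (SE, adjusted p = 0.00393). PDR12 held 1140.3, 1769.9, 2053 and 2158 in Phe, 762, 1122, 899 and 1113 in Trp and 2162, 2462, 2449 and 2951 in Ctrl, so that each Phe library exceeded every Trp library, by only a small margin for Phe A, and the Trp libraries were lowest of all. It differed by 0.85 ± 0.25 (SE, adjusted p = 0.0245), and WAR1 by 0.36 (adjusted p = 0.0157). The remaining decarboxylases and dehydrogenases, PDC5, PDC6, SFA1 and ADH4, differed by 0.16, 0.16, -0.14 and 0.17, none of which passed. PDC1, the major pyruvate decarboxylase, differed by -0.42 (adjusted p = 0.053), and -0.49 (adjusted p = 0.0242) without Phe C.

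Genes for making aromatic amino acids differed little. Of 13, 1 was higher in Phe and none lower, with a median of 0.09. That gene was ARO3, the DAHP synthase that phenylalanine inhibits. It held 4009.8, 4635, 3063 and 3322 normalized reads in Phe, 2292, 2436, 2573 and 2441 in Trp and 4960.0, 4944, 3718 and 4231 in Ctrl. All Phe libraries lay above all Trp libraries, with Phe C and D closest, and the Ctrl range overlapped that of Phe. The difference was 0.61 ± 0.14 (SE, adjusted p = 0.00334), and 0.70 (adjusted p = 0.000856) without Phe C. ARO4, the tyrosine-inhibited isoenzyme, differed by 0.24 (adjusted p = 0.169), with a 95% interval of 0.01 to 0.47. The intervals of the trunk genes were -0.31 to 0.25 for ARO1, the pentafunctional enzyme, and -0.26 to 0.25 for ARO2, chorismate synthase. On the phenylalanine and tyrosine branch they were -0.25 to 0.45 for ARO7 (chorismate mutase), -0.12 to 0.30 for PHA2 (prephenate dehydratase), 0.00 to 0.34 for TYR1 (prephenate dehydrogenase) and -0.18 to 0.30 for ARO8, the second aromatic aminotransferase. On the tryptophan branch, TRP2 and TRP3 (anthranilate synthase) differed by 0.01 and 0.20, with intervals of -0.15 to 0.16 and -0.10 to 0.49. TRP4, the next enzyme, had an interval of 0.01 to 0.69, and TRP5, tryptophan synthase, of -0.26 to 0.41. A 2-fold difference, 1 on the log2 scale, lay outside each of these intervals. TRP1 differed by 0.06 and is reported as uncertain, since in most libraries its value was not a whole number of reads, which occurs when 1 read is divided among several genes.

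None of the 7 kynurenine pathway genes passed between Phe and Trp (median -0.17), and each of the comparisons with Ctrl called 4 of them higher. Without Phe C, 2 were called higher in Phe against Ctrl, since BNA1 (adjusted p = 0.077) and BNA5 (adjusted p = 0.0556) no longer passed. BNA2, the tryptophan 2,3-dioxygenase that opens the pathway, held 181, 158, 181 and 159.6 normalized reads in Phe, 154, 127, 130.3 and 132 in Trp and 53.4, 72.4, 90.3 and 73.5 in Ctrl. Every Phe library exceeded every Trp library, and all 8 exceeded Ctrl. The difference between Phe and Trp was 0.32 ± 0.14 (SE, adjusted p = 0.127) and did not pass, with an interval of 0.04 to 0.60. Against Ctrl, BNA2 rose by 1.24 (adjusted p = 3.57e-08) in Phe and 0.92 (adjusted p = 1.63e-05) in Trp. BNA1, BNA4, BNA6 and BNA7 differed by 0.18, -0.01, -0.20 and -0.21. BNA3, an aminotransferase of the pathway, stood at -0.17 (adjusted p = 0.511) and at -0.41 (adjusted p = 0.0316) without Phe C, and BNA5, kynureninase, at -0.33 (adjusted p = 0.0716) and -0.38 (adjusted p = 0.0319), with an adjusted p of 0.0354 under the batch letter as a block. BNA5 has mostly fractional read values and is uncertain.

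Among 10 genes of NAD salvage and import, 1 was higher in Phe and 3 lower, with all libraries and without Phe C. The shares of all genes lower in Phe in these fits were 6.03% and 11.8%. NRK1, nicotinamide riboside kinase, held 361, 319.6, 239.5 and 298 normalized reads in Phe and 226, 212, 174 and 196 in Trp, with no overlap, a difference of 0.58 ± 0.14 (SE, adjusted p = 0.00535). PNP1 and URH1, both nucleoside-cleaving enzymes, were lower, at -0.35 (adjusted p = 0.0109) and -0.31 (adjusted p = 0.0385). PNC1, the nicotinamidase, also a stress gene, held 348, 158, 1541 and 205 in Phe and 1206, 892, 883 and 1009.7 in Trp. Phe C alone was above the Trp libraries and the other 3 were far below them. The difference was -1.44 (adjusted p = 0.0467), and -2.14 (adjusted p = 0.000594) without Phe C.

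Of 10 transporters that carry aromatic and other amino acids, 2 were higher in Phe and 1 lower (median 0.09). Without Phe C 3 were higher and 1 lower, against 11% and 11.8% of all genes. BAP2, a permease of branched-chain and aromatic amino acids, held 6726, 6837, 6375 and 8236 normalized reads in Phe, 2721, 4138, 3862 and 3659 in Trp and 4774, 5122, 4017 and 5892 in Ctrl. All Phe libraries exceeded all Trp and Ctrl libraries, and Ctrl C lay within the Trp range. The difference was 0.98 ± 0.17 (SE, adjusted p = 0.000174). AGP1, a broad-range permease, held 8113, 5929.7, 5644 and 9025 in Phe and 3525, 4879.7, 4329 and 4633 in Trp, again without overlap, and differed by 0.71 ± 0.19 (SE, adjusted p = 0.013). AVT1, a vacuolar amino acid importer, held 1198, 1183, 1522 and 1489 in Phe and 1706, 1919, 1729 and 1757 in Trp, and was lower in every Phe library than in any Trp library (-0.41, adjusted p = 0.0262). TAT2, the high-affinity tryptophan permease, held 1577, 1696, 2231 and 2193 in Phe and 1620.0, 2095, 2070.2 and 1827 in Trp. Its ranges overlapped, and the difference was 0.01 with a 95% interval of -0.27 to 0.28. TAT1, a tyrosine and tryptophan permease, differed by 0.30 (adjusted p = 0.0896), and 0.40 (adjusted p = 0.0185) without Phe C. GAP1, BAP3, GNP1, AVT3 and AVT4 differed by 0.09, 0.07, 0.08, -0.10 and 0.17 and did not pass, and GNP1 and AVT3 have mostly fractional read values.

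Of 16 other permeases, 2 were higher in Phe and 3 lower, with all libraries and without Phe C. With all libraries 5.87% of all genes were higher and 6.03% lower, and without Phe C 11% and 11.8%. PTR2, the importer of di- and tripeptides, held 261, 225, 366 and 395 normalized reads in Phe, 665, 696, 687 and 880.2 in Trp and 864, 677, 710.3 and 857 in Ctrl. All Phe libraries lay below the 8 others, which overlapped each other. The difference was -1.26 ± 0.15 (SE, adjusted p = 3.28e-07). OPT2, an oligopeptide transporter, was lower, at -0.62 (adjusted p = 0.00431), ALP1, an arginine permease, at -0.52 (adjusted p = 0.0215), and SAM3, the S-adenosylmethionine permease, higher by 0.69 (adjusted p = 6.5e-05). In the SPS amino acid sensor list, STP4 was the 1 gene of 10 to pass (1.12, adjusted p = 0.0444), with 898, 698, 1021 and 2945 normalized reads in Phe and 387, 712, 813 and 378 in Trp. Phe D was the highest of these libraries, and Phe B lay among the Trp libraries. Without Phe C, 1 gene of the sensor list was higher in Phe and 2 lower.

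Leucine, valine and isoleucine synthesis was the list, of the 47 examined, with the largest share of members higher in Phe. Of 11 genes, 9 were higher in Phe and none lower, with a median of 0.77 (log2), and 9 higher and none lower without Phe C. LEU1, isopropylmalate isomerase, held 46489.9, 54420.3, 41930.4 and 44161 normalized reads in Phe, 9056, 11917, 9367 and 12649.8 in Trp and 11555, 12581, 10377 and 11704 in Ctrl. Each Phe library was at least 3-fold above the highest of the 8 others. The difference was 2.13 ± 0.14 (SE, adjusted p = 1.1e-13). The Phe mean was the highest of the 10 groups, followed by Val (22148). OAC1, a mitochondrial carrier that also transports isopropylmalate and is not counted in this list, held 5830.3, 6450.1, 4711 and 6098 in Phe, 1596, 1908, 1683 and 1987 in Trp and 1854, 1952, 1412 and 2075 in Ctrl. Here too the Trp and Ctrl libraries overlapped and the Phe libraries stood above both, by 1.68 ± 0.14 (SE, adjusted p = 3.95e-11) over Trp.

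For BAT1 and ILV3 the Phe libraries lay above Ctrl and the Trp libraries below it. BAT1, the mitochondrial branched-chain aminotransferase, held 20583, 23056, 19389 and 25525 normalized reads in Phe, 7219.6, 10912, 10255 and 10303 in Trp and 13752, 13746, 13873 and 16622 in Ctrl, without overlap between Phe and Trp, and differed by 1.20 ± 0.17 (SE, adjusted p = 6.81e-06). ILV3, dihydroxyacid dehydratase, held 20416, 26209, 18986 and 21260.1 in Phe, 7972, 10951, 10518 and 10042 in Trp and 15091, 15452, 15536 and 15517 in Ctrl, and differed by 1.14 ± 0.13 (SE, adjusted p = 1.12e-07). LEU4, the main isopropylmalate synthase, held 13704, 17677, 19937 and 16225 in Phe and 6318, 8118, 8359 and 7778 in Trp. Its Phe libraries all lay above its Trp libraries, and it differed by 1.14 ± 0.18 (SE, adjusted p = 3.29e-05). Against Ctrl these 3 genes stood at 0.61 (adjusted p = 0.0229), 0.49 (adjusted p = 0.0165) and 0.53 (adjusted p = 0.0779) in Phe, and at -0.60 (adjusted p = 0.0161), -0.65 (adjusted p = 0.000635) and -0.61 (adjusted p = 0.0197) in Trp. ILV2, ILV5, LEU9, LEU3 and ILV1 were higher in Phe than in Trp by 0.91, 0.77, 0.45, 0.33 and 0.31 (adjusted p from 1.34e-08 to 0.0415). LEU3 encodes the transcription factor that controls several of these genes. The 2 that did not pass were ILV6, the regulatory subunit of acetolactate synthase (-0.09), and BAT2, the cytosolic aminotransferase (-0.19). LEU2 was not analysed here.

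**Figure D3:**
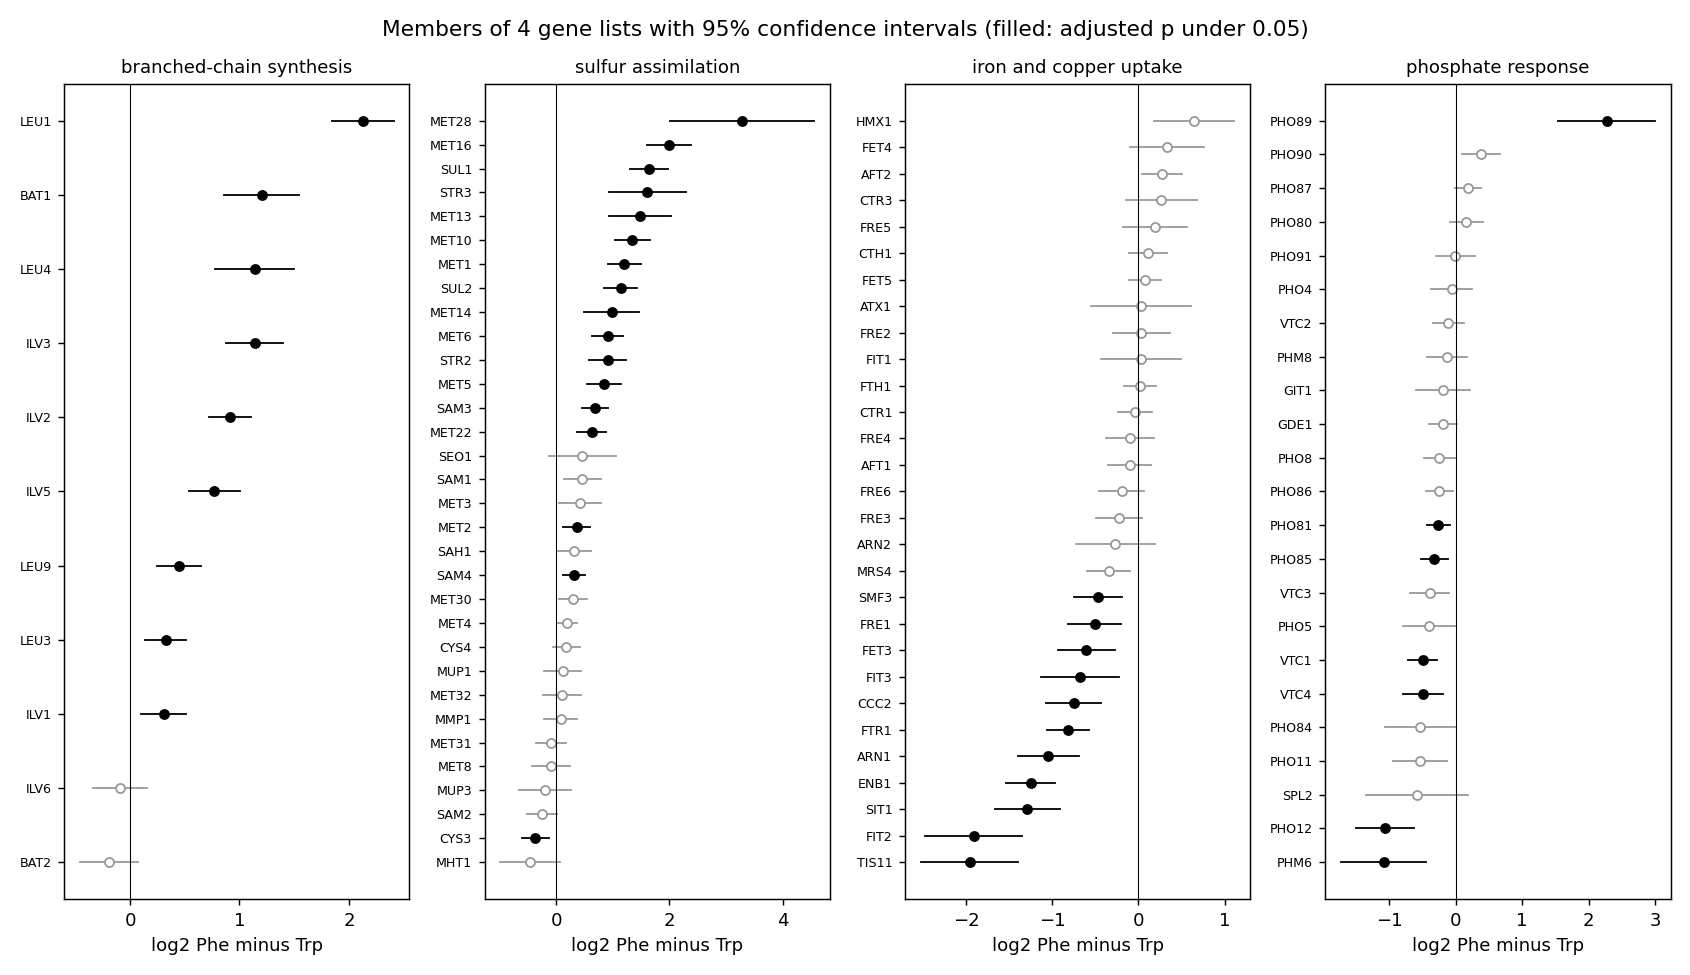
Log2 difference Phe minus Trp for every member of 4 gene lists (branched-chain synthesis, sulfur assimilation, iron and copper uptake, phosphate response), sorted within each list, with 95% confidence intervals as horizontal lines. Filled points passed an adjusted p of 0.05: 9 of 11 branched-chain and 16 of 32 sulfur genes lie above 0, 11 of 29 iron and copper genes below it, and in the phosphate list PHO89 is above 0 and 6 genes are below.

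Many genes of sulfate assimilation and methionine synthesis were also higher in Phe. Of 32 genes, 16 were higher in Phe and 1 lower (median 0.44), and 17 and 1 without Phe C. SUL1 and SUL2, the sulfate permeases, head the pathway. SUL1 held 781, 903, 891 and 715 normalized reads in Phe, 219, 264, 283 and 288 in Trp and 212, 203, 240.5 and 241 in Ctrl. Every Phe library exceeded the other 8 libraries by more than 2-fold, and the Trp and Ctrl ranges overlapped. SUL1 differed by 1.64 ± 0.16 (SE, adjusted p = 6.41e-09) and SUL2 by 1.14 (adjusted p = 5.01e-07). MET16, which reduces activated sulfate, held 442, 417, 354 and 237 in Phe, 108, 95.5, 87.5 and 66.7 in Trp and 109.8, 92.3, 91.5 and 72.4 in Ctrl. The separation was again complete, with Phe D the lowest Phe library. The difference was 1.99 ± 0.19 (SE, adjusted p = 4.47e-09), and the Phe mean of 363 was the highest of the 10 groups while the Trp mean of 89.4 was the lowest.

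Further along the pathway, MET10 and MET5, the subunits of sulfite reductase, were higher in Phe by 1.34 (adjusted p = 1.12e-07) and 0.84 (adjusted p = 0.000177), and MET1, which makes its sirohaem cofactor, by 1.21 (adjusted p = 1.67e-07). STR3, cystathionine beta-lyase, held 182, 194, 218 and 94.2 normalized reads in Phe and 50.5, 41.0, 69.1 and 56.0 in Trp, without overlap (1.61 ± 0.33, SE, adjusted p = 0.00137). MET13, methylenetetrahydrofolate reductase, held 1364, 2027, 2299 and 1748 in Phe and 431, 794, 714 and 758 in Trp, also without overlap (1.48 ± 0.27, SE, adjusted p = 0.000291), and MET6, methionine synthase, was higher by 0.91 (adjusted p = 1.76e-05). CYS3, cystathionine gamma-lyase, was the member that was lower in Phe (-0.37, adjusted p = 0.0335). MET28, a subunit of the regulatory complex of these genes, had the largest positive difference of the genes described (3.28 ± 0.62, SE, adjusted p = 0.000487). It held 138, 230.0, 242 and 96.7 in Phe, 32.2, 19.9, 16.2 and 6.12 in Trp and 2.60, 0.0165, 1.75 and 12.2 in Ctrl, is counted in fractions of a read in Ctrl B, and is reported as uncertain. MET17 was not analysed here. Of 14 genes of the glycine cleavage and one-carbon list, which includes MET13, 5 were higher in Phe and none lower, among them FOL1 (0.51, adjusted p = 0.0215), GCV1 (0.36, adjusted p = 0.0453) and FOL2 (0.36, adjusted p = 0.0263).

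Vitamin B6 synthesis differed through a low level in Trp. SNZ1 and SNO1, which encode the synthase and glutaminase subunits that make pyridoxal phosphate, are adjacent genes. SNZ1 held 3401, 4606, 5491 and 2658 normalized reads in Phe, 532, 647, 585 and 650.3 in Trp and 4596, 5266, 5977 and 5165 in Ctrl. The Phe and Ctrl ranges overlapped, and all Trp libraries were at least 4-fold below the lowest of them. SNO1 held 474, 517, 635 and 372 in Phe, 117, 139, 138 and 147 in Trp and 585, 621, 696 and 633 in Ctrl, with the same order. SNZ1 differed by 2.69 ± 0.17 (SE, adjusted p = 1.1e-13) and SNO1 by 1.86 ± 0.15 (SE, adjusted p = 3.59e-11). In Trp both fell against Ctrl, at -3.12 (adjusted p = 3.79e-16) and -2.22 (adjusted p = 5.8e-14), while in Phe they stood at -0.43 (adjusted p = 0.182) and -0.37 (adjusted p = 0.181), and without Phe C at -0.59 (adjusted p = 0.0344), which passed, and -0.49 (adjusted p = 0.0507). The Trp mean of SNZ1 was the lowest of the 10 groups, next to Val (1111). Of 17 genes of vitamin B6 and thiamine, 3 were higher in Phe, the third being THI3 (0.35, adjusted p = 0.0318), and none was lower, with a median of 0.01.

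The phosphate response rose against Ctrl in both groups (13 of 23 genes in Phe, 15 in Trp). Between Phe and Trp, 1 gene, PHO89, was higher in Phe and 6 were lower, against 5.87% and 6.03% of all genes. The difference was positive for 17.39% of the members. PHO89, the sodium-phosphate cotransporter, held 669, 1166, 688 and 679 normalized reads in Phe, 89.8, 207, 252 and 141 in Trp and 38.6, 61.5, 134 and 114 in Ctrl. All Phe libraries were above all Trp libraries, and Trp A lay among the Ctrl libraries. The difference was 2.27 ± 0.36 (SE, adjusted p = 3.64e-05). In contrast, the median of the list was -0.24. Without Phe C 2 genes of the list were higher and 5 lower, against 11% and 11.8% of all genes. PHO12, an acid phosphatase, held 646, 668, 489 and 549 in Phe, 1196, 1245, 1106 and 1321 in Trp and 43.0, 81.4, 86.2 and 73.5 in Ctrl, a difference of -1.06 ± 0.21 (SE, adjusted p = 0.0011), and is uncertain because PHO11 is a near-identical copy. PHM6, a gene of unknown function that responds to phosphate, held 70.4, 62.1, 36.6 and 42.7 in Phe and 114, 102, 126 and 97.6 in Trp, without overlap (-1.08, adjusted p = 0.0222). VTC4 and VTC1, of the polyphosphate-making complex, were lower, at -0.50 (adjusted p = 0.0245) and -0.49 (adjusted p = 0.00239), and the regulators PHO81 and PHO85 at -0.26 and -0.32. PHO84, the main phosphate transporter, did not pass (-0.53, adjusted p = 0.171), nor did SPL2 (-0.58, adjusted p = 0.328). With the batch letter as a block 9 genes of the list were lower in Phe (against 8.78% of all genes).

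Genes of iron uptake were among those higher in Trp. Of 29 genes of iron and copper uptake, 11 were lower in Phe and none higher (median -0.19), and without Phe C 11 were lower and 2 higher. The shares of all genes lower in Phe in these fits were 6.03% and 11.8%. TIS11, which promotes decay of mRNAs of iron-using proteins, held 43.0, 45.2, 51.4 and 62.8 normalized reads in Phe, 202, 201, 166 and 228 in Trp and 63.8, 91.3, 129.6 and 83.4 in Ctrl. Phe libraries lay below Ctrl and Trp libraries above it, with no overlap of the 3 groups. The difference was -1.96 ± 0.28 (SE, adjusted p = 7.87e-06). FIT2, a cell wall mannoprotein that retains siderophore iron, held 119, 112, 264 and 191 in Phe, 504, 671, 539 and 758 in Trp and 78.7, 97.2, 128 and 147 in Ctrl. Trp stood above both other groups, which overlapped, and Phe C was the highest Phe library. It differed by -1.91 ± 0.28 (SE, adjusted p = 1.04e-05). The siderophore transporters SIT1, ENB1 and ARN1 were lower in Phe, at -1.29, -1.25 and -1.05 (adjusted p = 8.53e-06, 1.12e-07 and 0.000108). SIT1 held 814, 1230.2, 1219 and 1176 in Phe and 2226, 2979.6, 2433 and 3203 in Trp, and ENB1 734, 908, 855 and 729 in Phe, 1706, 2237, 1573 and 2245 in Trp and 1299, 1797, 2162 and 1801 in Ctrl. Neither gene had overlapping Phe and Trp libraries, and for ENB1 the Trp libraries overlapped Ctrl while the Phe libraries lay below it. The high-affinity ferroxidase FET3 and its permease partner FTR1 were lower, at -0.60 (adjusted p = 0.0128) and -0.81 (adjusted p = 1.38e-05).

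Genes known for expression without oxygen were partly higher in Trp. Of 14, 6 were lower in Phe and 1 higher (median -0.24), with the same counts without Phe C. The shares of all genes lower in Phe in these fits were 6.03% and 11.8%. TIR1, a cell wall mannoprotein, held 56.0, 57.5, 47.7 and 70.4 normalized reads in Phe, 125, 446, 320.0 and 420.3 in Trp and 59.4, 40.7, 57.5 and 58.1 in Ctrl. Phe overlapped Ctrl, and all Trp libraries were higher, Trp A least so. The difference was -2.34 ± 0.39 (SE, adjusted p = 9.18e-05). DAN1, another such mannoprotein, held 7.82, 2.30, 1.59 and 5.03 in Phe, 8.42, 92.0, 80.8 and 113 in Trp and 7.42, 1.98, 2.93 and 1.10 in Ctrl, with Trp A close to Phe A and the other 3 Trp libraries at least 10-fold above every Phe library (-3.53 ± 0.88, SE, adjusted p = 0.0075). ANB1, the hypoxic form of the translation factor eIF5A, held 66.5, 87.4, 34.98 and 64.1 in Phe and 126, 299, 242 and 239.6 in Trp. The ranges did not overlap, with Trp A again the lowest of the Trp libraries (-1.83 ± 0.31, SE, adjusted p = 9.37e-05). AAC3, a hypoxic mitochondrial carrier, and HES1, an oxysterol-binding protein, were lower in Phe, at -0.93 (adjusted p = 0.000268) and -0.97 (adjusted p = 0.0102). OLE1, the fatty acid desaturase, was the member that was higher in Phe (0.96, adjusted p = 0.036). For scale, the mean of DAN1 in the Ala group was 16651 and that of TIR1 14267.

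PDR5, the multidrug exporter, held 2327, 2995, 3912 and 3246 normalized reads in Phe, 6724, 8212, 7478 and 7766 in Trp and 3494, 3405, 3413 and 3573 in Ctrl. Phe and Ctrl overlapped, and every Trp library was above both. The difference was -1.29 ± 0.15 (SE, adjusted p = 1.5e-07). QDR2, another multidrug exporter, went the other way, with 3009, 3494, 2666 and 2586 in Phe, 1216, 1395, 1155 and 1329.5 in Trp and 1848, 1707, 1797 and 1499.7 in Ctrl. Phe lay above Ctrl and Trp below it, without overlap, and the difference was 1.20 ± 0.12 (SE, adjusted p = 5.53e-09). TPO4, a polyamine exporter, and ATR1, an exporter of boron and aminotriazole, were higher in Phe by 1.04 (adjusted p = 0.0125) and 0.69 (adjusted p = 0.0126). Of 28 genes of drug efflux and its regulators, 3 were higher in Phe and 2 lower, against 5.87% and 6.03% of all genes. Without Phe C 3 were higher and 3 lower, against 11% and 11.8%.

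Other genes among the 10 largest differences in each direction belong to none of the groups above. SRL4, named for suppression of rad53 lethality, held 46.9, 53.7, 44.0 and 27.6 normalized reads in Phe, 5.62, 7.78, 3.06 and 3.86 in Trp and 10.4, 4.96, 5.87 and 2.19 in Ctrl, a difference of 2.88 ± 0.41 (SE, adjusted p = 7.87e-06). Every Phe library exceeded the other 8, and the Phe mean was the highest of the 10 groups. ECM13, of unknown function, held 67.8, 52.1, 107 and 126 in Phe, 16.8, 31.1, 20.8 and 18.4 in Trp and 145, 148, 26.98 and 108 in Ctrl (1.92 ± 0.51, SE, adjusted p = 0.013), and the Ctrl libraries overlapped both groups. MAL33, an activator of maltose genes that has close relatives in the genome, held 218, 169, 131 and 118 in Phe and 26.7, 63.7, 64.9 and 48.3 in Trp (1.66 ± 0.29, SE, adjusted p = 0.000177). MIT1, a regulator of filamentous growth, held 555, 458, 1046 and 569 in Phe, 1585, 1840.0, 1328 and 2115 in Trp and 1024, 1204, 1269 and 1707 in Ctrl (-1.44 ± 0.31, SE, adjusted p = 0.00201). Phe C was the highest Phe library for MIT1, and the Trp mean was the highest and the Phe mean the lowest of the 10 groups. MAN2, a putative mannitol dehydrogenase, held 6.52, 14.6, 8.48 and 6.28 in Phe and 26.7, 41.0, 31.8 and 37.7 in Trp (-1.88 ± 0.45, SE, adjusted p = 0.00503).

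Several chaperone genes were higher in Trp than in 3 of the 4 Phe libraries. Of 31 heat shock proteins, 8 were lower in Phe and 1 higher with all libraries, and 14 lower and 2 higher without Phe C, with medians of -0.28 and -0.47. Of all genes, 6.03% were lower in Phe with all libraries and 11.8% without Phe C. HSP82, the inducible Hsp90 chaperone, held 364, 180.1, 2144 and 299 normalized reads in Phe, 2214, 1194, 1431 and 2457 in Trp and 637, 625, 493 and 839 in Ctrl. Phe A, B and D lay far below every Trp library, and Phe C lay among them. The difference was -1.94 ± 0.52 (SE, adjusted p = 0.0127), and -2.69 ± 0.45 (SE, adjusted p = 7.72e-05) without Phe C. HSP82 and HSC82, and likewise SSA1 and SSA2, are near-identical copies, so their counts are uncertain. SSA1, an Hsp70 chaperone, held 1753, 957, 9051 and 2028 in Phe, 7871, 5037, 7771 and 6524 in Trp and 3467, 3458, 2878 and 4307 in Ctrl, with Phe C above all Trp libraries. It differed by -1.51 (adjusted p = 0.0126), and by -2.15 (adjusted p = 1.52e-05) without Phe C. SSA2, the constitutive Hsp70, and HSP10, a mitochondrial chaperonin, were lower in Phe, at -0.73 (adjusted p = 0.00584) and -0.66 (adjusted p = 0.0488). HSP104, the disaggregase, passed only without Phe C (-1.02, adjusted p = 0.115, with it, -1.59, adjusted p = 0.00418, without). Against Ctrl, none of the 31 heat shock proteins passed in Trp or in Phe, and without Phe C 3 were lower in Phe.

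General stress genes also depended on Phe C. Of 59, 2 were higher in Phe and 4 lower with all libraries, and none higher and 25 lower without Phe C, with medians of -0.15 and -0.63. The shares of all genes lower in Phe in these fits were 6.03% and 11.8%. GRE3, an aldose reductase, held 460.0, 276, 1055 and 368 normalized reads in Phe and 1081, 835, 754 and 879 in Trp, with Phe C inside the Trp range and the other 3 Phe libraries below it. The difference was -0.90 (adjusted p = 0.0205), and -1.29 (adjusted p = 0.000114) without Phe C. UGP1, which makes UDP-glucose, and ALD2, an aldehyde dehydrogenase, were lower, at -0.74 (adjusted p = 0.0404) and -0.71 (adjusted p = 0.0229). TSL1, a subunit of trehalose synthase, and GLK1, glucokinase, stood at -1.28 (adjusted p = 0.122) and -1.28 (adjusted p = 0.0942) with all libraries and at -2.11 (adjusted p = 0.00197) and -2.10 (adjusted p = 0.000567) without Phe C. In Phe C the values of TSL1 and GLK1 were 2048 and 4656 normalized reads, against 178 to 248 and 426 to 590.0 in the other Phe libraries. GLK1 has mostly fractional read values and is uncertain.

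Genes of peroxide defence were partly lower in Phe. Of 24 oxidative stress genes, 6 were lower in Phe and none higher, and 11 were lower without Phe C (against 11.8% of all genes). TSA1, the major thioredoxin peroxidase, held 9600.3, 7240.4, 11509 and 8899 normalized reads in Phe and 16548, 15438, 15822 and 14832 in Trp. All Phe libraries, Phe C included, lay below all Trp libraries, and the difference was -0.77 ± 0.13 (SE, adjusted p = 9.37e-05). AHP1, an alkyl hydroperoxide reductase, held 8998, 6472, 18307 and 7409 in Phe and 23384, 18138, 19390.4 and 19675 in Trp, with Phe C reaching the lowest Trp library (-1.09, adjusted p = 0.00184). TRX2, a thioredoxin, was lower in Phe, at -0.63 (adjusted p = 0.00412) and HYR1, a glutathione peroxidase, at -0.46 (adjusted p = 0.0132). Of 33 proteasome genes 4 were lower in Phe and none higher, and 13 were lower without Phe C (against 11.8% of all genes). The 4 were RPN10 (-0.41, adjusted p = 0.00636), SCL1 (-0.31, adjusted p = 0.00646), RPT6 (-0.31, adjusted p = 0.0166) and RPN6 (-0.23, adjusted p = 0.0364).

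Ribosome biogenesis genes passed mostly when Phe C was left out. Of 118 genes, 6 were higher in Phe and none lower with all libraries (median 0.34), and 84 higher and none lower without Phe C (median 0.51), against 11% of all genes higher in that fit. Against Ctrl, with all libraries, none of the 118 passed in Phe (median 0.001), and 6 were lower in Trp (median -0.316). MPP10, a processome protein, held 2681, 3272, 1974 and 2866 normalized reads in Phe and 1802, 1869, 2249 and 1636 in Trp. Phe A, B and D exceeded every Trp library, and Phe C lay among the Trp libraries. The difference was 0.50 (adjusted p = 0.0369), and 0.64 (adjusted p = 0.0052) without Phe C. RRP7, SOF1 and FCF2, which act in processing of the small subunit RNA, were higher by 0.45, 0.40 and 0.53, and by 0.60, 0.51 and 0.76 without Phe C. Of 139 cytosolic ribosomal proteins 1, RPS14B, differed (-0.49, adjusted p = 0.00521), and the median was -0.10. RPS14B has a near-identical copy, RPS14A, and is uncertain. The part that Phe C's culture or library played in these differences was not tested.

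**Figure D4:**
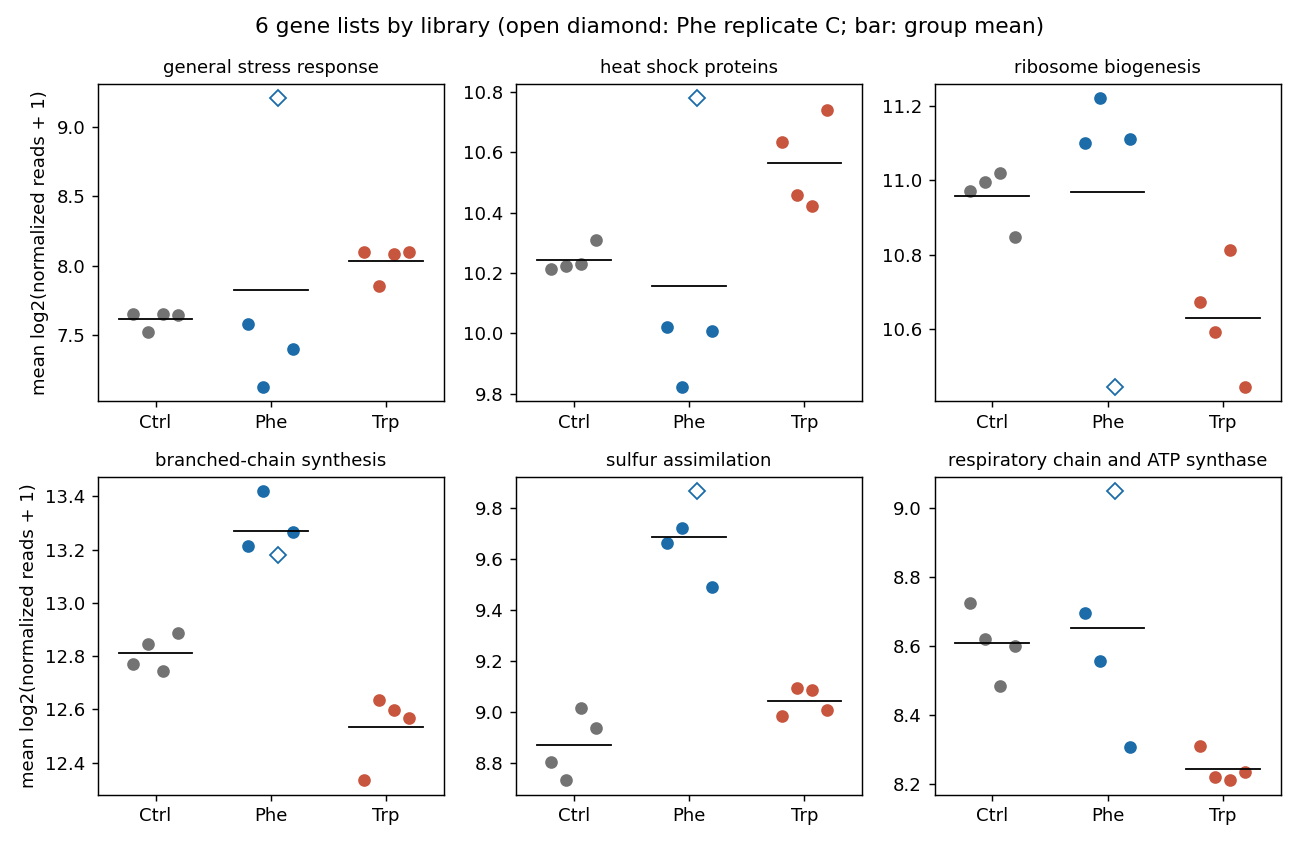
Mean log2(normalized reads + 1) of 6 gene lists in each Ctrl, Phe and Trp library, 1 panel per list, with the group mean as a bar and Phe replicate C as an open diamond. Phe replicate C is the highest Phe library for general stress and heat shock and the lowest for ribosome biogenesis, while for branched-chain synthesis and sulfur assimilation all 4 Phe libraries lie above all 4 Trp libraries.

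Respiratory chain genes were partly higher in Phe. Of 42, 13 were higher in Phe and none lower (median 0.35), 10 higher and 1 lower without Phe C, and 21 higher with the batch letter as a block. The shares of all genes higher in Phe in these fits were 5.87%, 11% and 7.98%. By the mean of the list, on the log2 scale, Phe C was the highest Phe library at 9.05 and Phe D the lowest at 8.31, within the Trp range. NDE1, the external NADH dehydrogenase of mitochondria, held 3204, 3489, 3465 and 3854 normalized reads in Phe, 1464, 1578, 1429 and 1076 in Trp and 3369, 3307, 2909.9 and 3004 in Ctrl. Phe and Ctrl overlapped, and all Trp libraries were below both. The difference was 1.35 ± 0.24 (SE, adjusted p = 0.00017). QCR9 of complex III, COX4 of cytochrome c oxidase and ATP20 of ATP synthase were higher by 0.96 (adjusted p = 0.000743), 0.80 (adjusted p = 0.0111) and 0.79 (adjusted p = 0.0021). Against Ctrl, none of the 42 passed in Phe, and in Trp 15 were lower and 1 higher. HAP4, the activator of many of these genes, passed with all libraries (adjusted p = 0.0399) and stood at 0.89 (adjusted p = 0.0615) without Phe C.

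Among 20 hexose transporters, 2 were higher in Phe and none lower, with all libraries and without Phe C (against 5.87% and 11% of all genes higher). HXT2, a high-affinity transporter, held 2277, 2131, 2644 and 1776 normalized reads in Phe, 546, 1100.0, 1581 and 504 in Trp and 5473, 4258, 4603 and 3059.8 in Ctrl. The lowest Phe library lay above the highest Trp library, by a small margin over Trp C, and Ctrl was highest. The difference was 1.39 ± 0.36 (SE, adjusted p = 0.0103). HXT3, a low-affinity transporter, held 28298, 24089.7, 19759 and 34215 in Phe and 9425, 19655, 21733 and 9183 in Trp, where Phe C fell below Trp C (0.91, adjusted p = 0.0394). For both transporters Trp A and D were lower than Trp B and C. Of 30 genes of glycolysis and fermentation, 3 were lower in Phe with all libraries (against 6.03% of all genes). Without Phe C 11 were lower (against 11.8%), and with the batch letter as a block 6 (against 8.78%). With all libraries the lower genes were PGK1 (-0.37, adjusted p = 0.0285), GPM1 (-0.30, adjusted p = 0.0484) and GPD1 (-1.38, adjusted p = 0.0283), the last of which has mostly fractional read values and is uncertain. In the list of gluconeogenesis and the glyoxylate cycle, ADR1, an activator of genes for non-fermentable carbon, was higher in Phe (0.75, adjusted p = 0.00969) and ACO1, aconitase, lower (-0.79, adjusted p = 0.0322), of 15. ACO1 held 8048, 6203, 13451 and 7056 normalized reads in Phe and 13814.5, 15185, 12294 and 16248 in Trp, with Phe C among the Trp libraries. Without Phe C it stood at -1.02 (adjusted p = 0.00367).

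Of 10 zinc genes 5 were higher in Phe and none lower (median 0.58), and 6 without Phe C, against 5.87% and 11% of all genes higher. By the mean of the list, on the log2 scale, Phe A, B and D stood at 9.751, 9.844 and 9.926. Phe C stood at 9.199, within the Trp range of 9.095 to 9.335. Against Ctrl, 1 of the 10 was higher in Phe, and 4 were lower in Trp. IZH2, a membrane protein of zinc homeostasis, held 882, 986, 551 and 1108 normalized reads in Phe and 498, 507, 505 and 482 in Trp. The Phe libraries were all above Trp, with Phe C closest (0.78 ± 0.22, SE, adjusted p = 0.0182). ZRT2, the low-affinity zinc transporter, ZPS1, a secreted protein induced by low zinc, and IZH1, a relative of IZH2, were higher by 0.64 (adjusted p = 0.00217), 0.71 (adjusted p = 0.00187) and 0.79 (adjusted p = 0.0406), as was ZAP1, the zinc-responsive activator (0.52, adjusted p = 0.0182). ZRT1, the high-affinity transporter, held 764, 667, 253 and 804 in Phe and 226, 302, 296 and 227 in Trp and passed only without Phe C (1.12, adjusted p = 0.0599, with it, 1.51, adjusted p = 0.00703, without).

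Nitrogen catabolite repression genes went both ways, with 5 of 29 higher in Phe and 3 lower, against 5.87% and 6.03% of all genes. Without Phe C 5 were higher and 4 lower, against 11% and 11.8%. UGA3, the activator of GABA use, was higher in Phe (0.91, adjusted p = 0.0021), as were DUR3, a urea permease (0.62, adjusted p = 0.0152), and GDH2, the NAD-linked glutamate dehydrogenase, with 1159.8, 1274, 1233 and 1147 normalized reads in Phe and 667, 786, 813 and 824 in Trp. The ranges of GDH2 did not overlap (0.64 ± 0.08, SE, adjusted p = 9.1e-07). UGA1, GABA transaminase, was lower (-0.75, adjusted p = 0.0173), and stood at -1.08 (adjusted p = 4.83e-05) without Phe C. It held 562, 373, 1165 and 496 normalized reads in Phe and 1109, 879, 914 and 1089.9 in Trp. Phe C lay above every Trp library and the other Phe libraries below them. Of 28 ergosterol synthesis genes, 2 were higher in Phe and 8 lower (median -0.18), against 5.87% and 6.03% of all genes. Without Phe C 3 were higher and 10 lower, against 11% and 11.8%. ERG8 was higher (0.44, adjusted p = 0.00189), and ERG28 (-0.59, adjusted p = 0.00636), ERG4 (-0.42, adjusted p = 0.037) and ERG3 (-0.41, adjusted p = 0.0202) were among the lower ones. In the peroxisome list 3 of 24 were higher in Phe and none lower, and 3 were higher and 1 lower without Phe C. FAA2, a fatty acyl-CoA synthetase, held 478, 448, 343 and 391 in Phe and 163, 205, 206 and 141 in Trp, without overlap (1.22 ± 0.22, SE, adjusted p = 0.000296), and PIP2, an oleate-responsive activator, and PEX5, an import receptor, were higher by 0.67 (adjusted p = 2.4e-06) and 0.28 (adjusted p = 0.00756).

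Some cell cycle genes were lower in Phe. Of 19 cyclins and their regulators 5 were lower and none higher (median -0.21), and of 34 DNA replication genes 8 were lower and 1 higher (median -0.09). The share of all genes lower in Phe was 6.03%. Without Phe C 5 of the 19 were lower, and of the 34 9 were lower and 1 higher, against 11.8% of all genes lower. CLN2, a G1 cyclin, held 1255, 1059, 1552 and 1450.1 normalized reads in Phe and 1946, 1722, 1863 and 1749.8 in Trp. No Phe library reached the lowest Trp library (-0.47 ± 0.12, SE, adjusted p = 0.0114). CLB6, an S-phase cyclin, PCL2, a G1 cyclin, and SWI4, a G1/S activator, were lower, at -0.93 (adjusted p = 0.031), -0.61 (adjusted p = 0.00172) and -0.51 (adjusted p = 0.0365). RFA2 and RFA1, subunits of the single-strand binding protein RPA, were lower, at -0.60 (adjusted p = 0.000312) and -0.48 (adjusted p = 0.0175), and CDC45, of the replicative helicase, at -0.41 (adjusted p = 0.0119). CDC6 passed with Phe C and not without it (-0.46, adjusted p = 0.0488 and -0.43, adjusted p = 0.066), and has mostly fractional values. With equal library totals, 3 genes of each list were lower. Of 10 histone genes 2 were lower, HHO1 (-0.40, adjusted p = 0.0179) and HTZ1 (-0.31, adjusted p = 0.0286).

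Several lists held few calls with all libraries, when 5.87% of all genes were higher in Phe and 6.03% lower. Without Phe C these shares were 11% and 11.8%. Aminoacyl-tRNA synthetases had 1 of 19 higher in Phe, CDC60 for leucine (0.36, adjusted p = 0.0128), and the mitochondrial ones 1 of 13, MSR1 for arginine (0.29, adjusted p = 0.0488, and 0.28, adjusted p = 0.0525, without Phe C). No gene passed of 7 for histidine synthesis, 10 for arginine, 11 for serine and threonine, 27 for pheromone signalling, 6 for meiosis and sporulation, or 2 markers of mating type alpha, with medians of 0.11, 0.31, 0.14, 0.01, -0.27 and -0.09. The largest differences among these were 0.60 (adjusted p = 0.221) for ARG4, argininosuccinate lyase, and -0.66 (adjusted p = 0.0846) for IME1, the meiotic inducer, which passed with the batch letter as a block (adjusted p = 0.0293). Lysine synthesis had 2 of 10 lower, LYS12 (-0.35, adjusted p = 0.0266) and LYS20 (-0.35, adjusted p = 0.0403). Purine synthesis had 1 of 14 higher, the activator BAS1 (0.57, adjusted p = 0.00584), and 2 lower, PHO2 (-0.35, adjusted p = 0.0245) and ADE16 (-0.31, adjusted p = 0.0133). Without Phe C, 4 of the 14 were higher and 2 lower. The markers of mating type a had 2 of 7 higher, STE2 (0.44, adjusted p = 0.0167) and AGA2 (0.53, adjusted p = 0.0497). Cell wall integrity had 2 of 31 lower, CRH1 (-0.56, adjusted p = 0.0197) and PST1 (-0.46, adjusted p = 0.0497), and autophagy 1 of 30 higher, ATG39 (1.45, adjusted p = 0.00343). Without Phe C, 5 of the 31 cell wall genes were lower, and of the 30 autophagy genes 2 were higher and 4 lower. In the list of Gcn4 and translation initiation 1 of 15 was higher, GCN4 itself (0.25, adjusted p = 0.0364), and of 70 mitochondrial ribosomal proteins 3 were higher, RSM22 (0.53, adjusted p = 0.000323), MRPL10 (0.26, adjusted p = 0.0288) and MRPL3 (0.22, adjusted p = 0.0452). Without Phe C, 4 of the 15 were higher, and of the 70 ribosomal proteins 5 were higher and 3 lower. With the batch letter as a block 8 of those 70 were higher (against 7.98% of all genes).

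**Figure D5:**
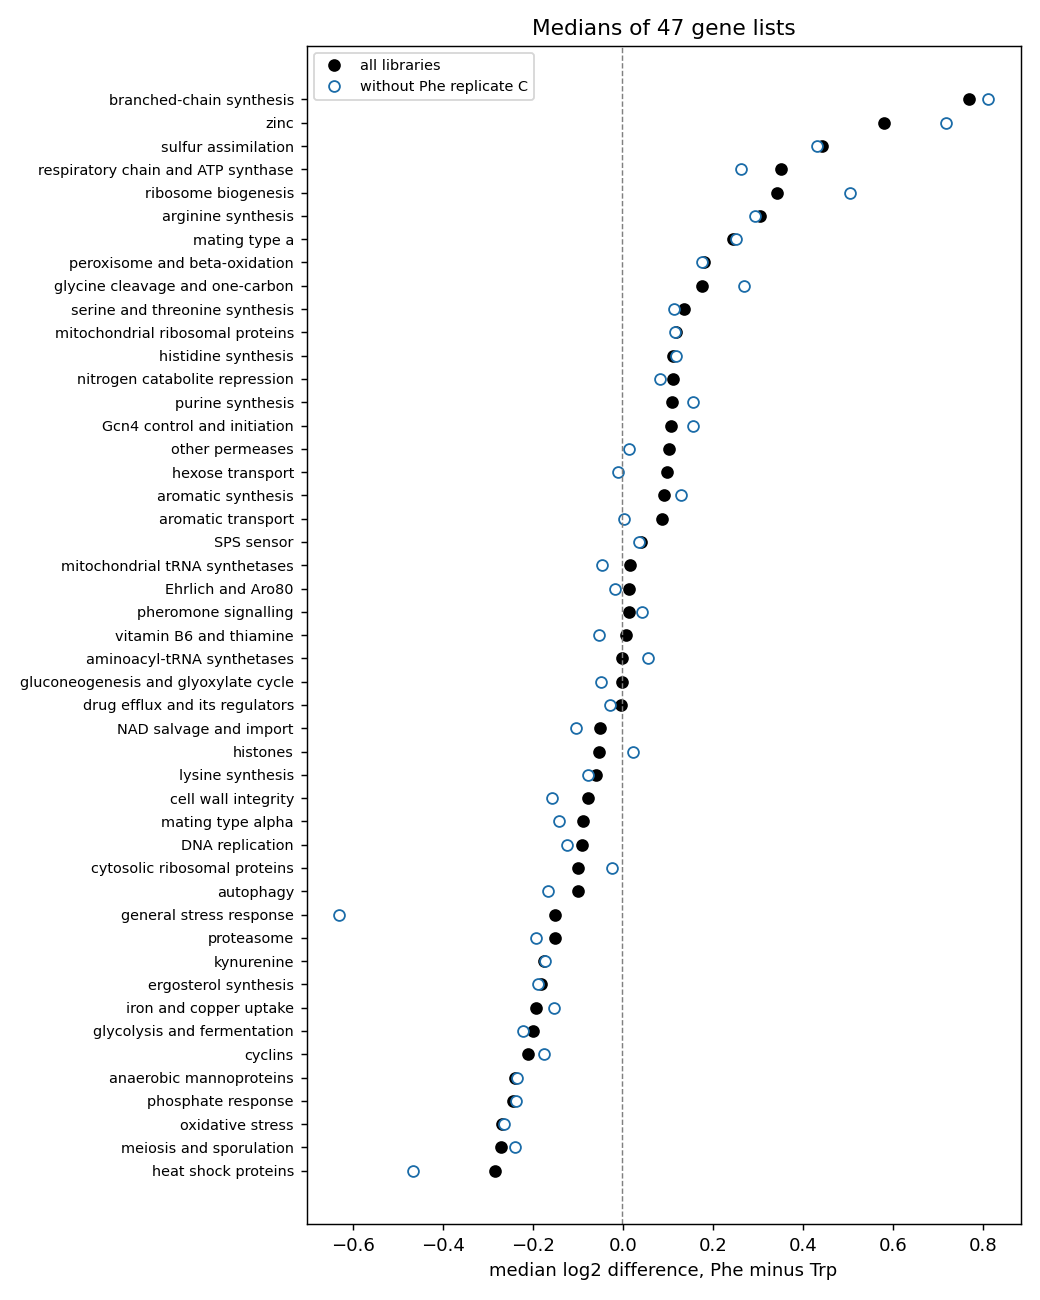
Median log2 difference Phe minus Trp of 47 gene lists with all libraries (filled circles) and without Phe replicate C (open circles), sorted by the first; the dashed line is the median of all 6103 genes. Branched-chain synthesis lies highest at 0.77, and without Phe replicate C general stress moves from -0.15 to -0.63 and ribosome biogenesis from 0.34 to 0.51.

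Some calls rested on Phe C, though leaving out any other Phe or Trp library cost more of them. Without Phe C 689 of the 726 calls were kept, against 343 (without Phe B) to 574 (without Trp C) for the others. Of the 37 genes called only with Phe C, those with the largest differences were SPG4, a stationary-phase gene, HAP4, NCA3, YHR022C, EMA17 and VHT1, a biotin transporter. SPG4 held 20.9, 13.8, 50.9 and 10.1 normalized reads in Phe and 4.21, 2.12, 9.18 and 1.93 in Trp, with 2.14 (adjusted p = 0.0187) and 1.70 (adjusted p = 0.0502) without Phe C. NCA3, of mitochondrial function, held 324, 340.3, 714 and 393 in Phe and 198, 275, 288 and 236 in Trp (0.76, adjusted p = 0.0157 and 0.51, adjusted p = 0.0595). VHT1 held 889, 1045, 1309 and 917 in Phe and 539, 738, 641 and 722 in Trp (0.65, adjusted p = 0.0231 and 0.53, adjusted p = 0.0525). In each of these 3 genes Phe C was the highest library and the other Phe libraries still lay above the Trp libraries. YHR022C and EMA17 stood at -0.69 (adjusted p = 0.0352) and 0.65 (adjusted p = 0.0498), and at -0.63 (adjusted p = 0.0534) and 0.58 (adjusted p = 0.0797) without Phe C.

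Among the 45 pairs of groups in the series, the number of genes called ran from 8 for Ile against Val, a pair of branched-chain amino acids, to 3217 for Ala against Cys. Phe against Trp, with 726, had 89 genes of 2-fold or more, while Phe against Val, the lowest such count among the pairs with Phe, had 68, and Trp against Val, the lowest among the pairs with Trp, had 50. Such counts depend on how far the libraries of each group spread, and differences between pairs were not tested.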

How the data were processed

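Messenger RNA was measured by RNA sequencing. Per the labels' protocols, RNA was extracted with a yeast RNA kit, treated with DNase, and made into poly(A)-selected directional libraries. Per the submitters' processing notes, STAR 2.7.8a and Partek were used. The genome build, annotation, normalization method and any use of strand were not given in the sources used here. Normalized read counts (unit: signal) were deposited as a single table for 6462 genes and 40 libraries (4 lines are empty). Every sample column was used, so 0 were left out. In each library 88.81 to 90.93% of values were within 0.1 of a whole number of reads after undoing the library's scale, too few for a count test, and the depths given are estimates from that scale. The totals of normalized reads ran from 8677368 to 9451724 in the 8 Phe and Trp libraries. Of the genes, 5851 were found in a table of assembly R64, which gave 187 missing symbols.

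Values were analysed as log2(value + 1), which understates the change of low genes, for the 6103 genes with a mean of at least 5 over all libraries. limma 3.58.1 in R 4.3.3 was fitted with 1 mean per group, a trend in the variance and no block, and p-values were adjusted by Benjamini-Hochberg at 0.05. The 95% intervals are for single genes and are not adjusted. Nothing in the labels says that replicates came from separate cultures, so the p-values reflect sample-to-sample spread that could be technical. The labels call the letters batches, which pairs the libraries; the correlation of same-letter deviations between Phe and Trp was 0.279 for A, 0.023 for B, 0.079 for C and 0.024 for D, while that of different letters ran from -0.151 to 0.232. On simulated Phe minus Trp data with 200 of 6103 genes changed, the fit found 42 of 67 genes changed by 0.58 on the log2 scale (62.7%), 65 of 67 changed by 1 (97%) and 66 of 66 changed by 2 (100%), with 5 false calls. Every gene was drawn with the same dispersion, without a batch effect or an outlying library such as Phe C. These rates therefore do not describe the libraries compared here.

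The genes, lists and rules were chosen with earlier results of these data known. Named genes were the 10 largest differences each way among those passing with and without Phe C, of 1 sign in all 4 letters and with a mean of at least 20, every member of the aromatic and kynurenine lists, in each other list up to 4 passing members by size of difference (up to 2 where none passed), and the 6 largest of those called only with Phe C. Other genes were chosen after their values were seen, among them HSP12, HSP104, TSL1, GLK1 and ZRT1. Gene lists were described by counts and medians, with no set test. Genes with fractional reads, near-identical copies or overlapping neighbours are uncertain. Alternatives changed the pseudocount, filter, scaling, block, libraries fitted and libraries left out, and 1, the block without Phe C, was chosen after seeing the data.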

Additional observations from a re-analysis of the deposited data

Results flagged for a closer look

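In each group of 4 libraries, the highest or lowest library was compared with the nearest of the others by Dixon's test at the 95% level, for the 201 genes named in the text, in normalized reads. It set 1 library apart in 42 of 603 groups (7.0%), and chance does so in about 1 of 20. Phe C was that library 16 times. Some of these genes were named because of their values in Phe C, among them HSP12, HSP104, TSL1 and GLK1, and 6 because they were called only with it, so its count cannot be set against chance. No explanation was tested.

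Phe C was the highest Phe library for ADE16 at 2939 (2242 to 2360.1 in the others), ALD2 at 249 (112 to 132 in the others) and BNA3 at 972 (461 to 549 in the others). It also stood above the rest for GLK1 at 4656 (426 to 590.0 in the others), GPD1 at 2500.1 (382 to 674 in the others) and HSP104 at 2869 (511 to 627 in the others). The same held for HSP12 at 7353 (448 to 1106 in the others), HSP82 at 2144 (180.1 to 364 in the others) and PNC1 at 1541 (158 to 348 in the others). Phe C was the highest Phe library for RFA1 at 882 (577 to 623 in the others), SAM3 at 1909 (1452 to 1468 in the others) and SSA1 at 9051 (957 to 2028 in the others). It also stood above the rest for SUL2 at 877 (455 to 524 in the others), TSL1 at 2048 (178 to 248 in the others) and UGP1 at 3344 (1190.4 to 1331 in the others). Phe C was the lowest for RRP7 at 977 (1436 to 1500.4 in the others).

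Phe A was the lowest Phe library for SIT1 at 814 (1176 to 1230.2 in the others). Phe B was the highest Phe library for CDC6 at 279.9 (169 to 185 in the others) and PHO89 at 1166 (669 to 688 in the others). Phe D was the highest Phe library for STP4 at 2945 (698 to 1021 in the others). Phe D was the lowest Phe library for CLB6 at 26.4 (71.5 to 79.5 in the others) and RSM22 at 504 (553 to 560.2 in the others). Trp A was the highest Trp library for BNA6 at 1719.6 (1475 to 1489.8 in the others) and RPT6 at 2201 (1873 to 1894 in the others). Trp A was the lowest Trp library for ARO1 at 4239 (5801 to 6101 in the others). Trp B was the lowest Trp library for BAT2 at 2984 (3476 to 3547 in the others). Trp D was the highest Trp library for PTR2 at 880.2 (665 to 696 in the others) and TSL1 at 1311 (744 to 832 in the others). Trp D was the lowest Trp library for ZRT2 at 990.4 (1078 to 1094 in the others).

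Ctrl B was the highest Ctrl library for LEU3 at 727 (627 to 641 in the others), SOF1 at 1522 (1435 to 1446 in the others) and ZPS1 at 141 (97.6 to 104 in the others). Ctrl B was the lowest Ctrl library for TIR1 at 40.7 (57.5 to 59.4 in the others). Ctrl C was the highest Ctrl library for ANB1 at 127 (58.1 to 62.3 in the others), GCN4 at 11976 (10884 to 11018 in the others) and PGK1 at 64239.9 (55016 to 55512 in the others). It was so also for ZRT1 at 1656 (738 to 843 in the others). Ctrl C was the lowest Ctrl library for BNA1 at 660.5 (904 to 932 in the others), STP4 at 1569 (2260.2 to 2312 in the others) and UGA3 at 449.9 (753 to 807 in the others). Ctrl D was the highest Ctrl library for BAT1 at 16622 (13746 to 13873 in the others) and PHO11 at 31.8 (23.5 to 24.8 in the others).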

How the results depend on the processing

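No gene named in the text changed the sign of a call under any setting run. Of the 153 named genes that passed, 100 lost the call in at least 1 setting, most often with the compared groups alone in the model (76 lost), with that model and a block (90) or without Phe B (63). The number of genes passing between Phe and Trp (726) was 702 to 740 with other pseudocounts, filters or median-of-ratios scaling. It was 269 with the compared groups only (155 higher, 114 lower) and 142 with a block there too (98 higher, 44 lower). Without the letter C libraries of Phe, Trp and Ctrl it was 1304 (640 higher, 664 lower), of which 175 differed 2-fold or more. Equal library totals moved the median of all genes to 0.039 and gave 440 higher and 226 lower. Leaving out 1 library gave 352 to 1389 genes, 193 to 670 higher, 159 to 719 lower and 66 to 152 of 2-fold or more. The causes were not tested.

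The replicate block, with the letter as a term, gave 1023 genes (487 higher, 536 lower). Of the named genes it added calls for BNA5, ESBP6, IME1, PDC1 and PHO11 and changed no other. With the block and Phe C left out, a setting chosen after seeing the data, 1709 genes passed (833 higher, 876 lower), 153 of them by 2-fold or more.

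Against Ctrl, the compared groups only gave 195 genes for Phe and 1311 for Trp, and 176 and 1625 with the block. Leaving out 1 library gave 265 to 335 for Phe and 465 to 681 for Trp, the lowest without Trp A (465) and Trp D (481). Of 47 list medians, 8 values moved. A mean of at least 50 gave 0.142 for vitamin B6 and thiamine, 0.376 for mating type alpha and 0.079 for meiosis. The meiosis median was -0.203 without Phe D, -0.322 without Trp C and -0.199 without Trp D. Serine and threonine synthesis stood at 0.050 without Trp A, and cyclins at -0.131 with the block and without Phe C.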
